A study of Mus musculus with 16 samples.

Results

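Imprinted genes were examined as a set of 41 genes in 22 clusters, chosen by name from a list of mouse imprinted genes and found in full among the 34614 protein-coding and long noncoding RNA (lncRNA) genes of the RefSeq table of GRCm38.p6. Of the 41, 35 are protein-coding and 6 are lncRNA genes, namely H19, Kcnq1ot1, Airn, Meg3, Rian and Mirg. Of the clusters, 9 hold several listed genes and 13 a single one. The data were peak lists of H3K27ac, a histone acetylation typical of active regulatory sequence, and of H3K4me3, a histone methylation typical of promoters, in mouse embryos at the late 2-cell stage, 36 h after fertilization. Chromatin was cut with micrococcal nuclease without crosslinking and bound fragments were sequenced. Control embryos received water as zygotes, and mutant embryos received mRNA of a mutant form of Hdac1, a histone deacetylase. The labels do not name the mutation or any deletion of the embryo's own Hdac1, and the control is water and not another mRNA. Each mark and injection had 2 immunoprecipitation libraries and 2 input libraries, but a single deposited peak list, so no value has a replicate error, no condition was tested, and the depth of the libraries is unknown.

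An imprinted gene is expressed mainly from the copy inherited from a given parent. Most imprints are set by DNA methylation laid down in the egg or sperm at a control region, which proteins such as ZFP57 and TRIM28 protect after fertilization. H3K4me3 typically lies on the copy that is free of DNA methylation. A smaller group, here Gab1, Jade1, Sfmbt2, Slc38a4 and Smoc1, is silenced on the maternal copy by H3K27me3 from the egg. The deposited peaks carry no information on parental origin, so a peak on 1 copy and a peak on both cannot be told apart, and neither can fewer cells with a mark and less of it per cell.

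The lists covered similar shares of the genome, between 9.03% and 10.3%, with 77349 H3K27ac peaks in control embryos and 122487 in mutants and 86798 and 85780 H3K4me3 peaks. A gene was called marked when a peak overlapped a window of 2 kb on either side of either gene end, because the gene table gives no strand. Of 12 genes active at the 2-cell stage or named for the design, including Dppa2, Zfp352 and Hdac1, all 12 had a gene-end H3K27ac peak in each condition, and 11 had H3K4me3 in control embryos and 12 in mutants. The exception was Zscan4c, a gene of a multicopy family whose peaks are uncertain.

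Imprinted genes were marked mostly by H3K4me3, and often without H3K27ac. In control embryos 35 of 41 genes (85.4%, 95% Wilson interval 71.6 to 93.1) had an H3K4me3 peak at a gene end, where 66.4% of all genes did. H3K27ac was present at 15 genes (36.6%, 23.6 to 51.9), where 47.9% of all genes had it. In mutant embryos 31 genes (75.6%, 60.7 to 86.2) had H3K4me3, against 65.9% of all genes, and 14 genes (34.15%, 21.6 to 49.45) had H3K27ac, against 53.5%. Imprinted genes are long, with a median of 57.8 kb against 12.8 kb, so coding genes of similar length were counted too. Among 9630 coding genes in the length range of the middle 50% of the imprinted genes (13212 to 87733 bp), 63.1% had H3K27ac and 83.3% had H3K4me3 in control embryos, and 66.8% and 81.0% did in mutants. The H3K4me3 share of the imprinted genes in mutant embryos was thus above that of all genes and below that of coding genes of similar length. Intervals here cover counting error only and treat genes as independent, although some neighbours share a peak.

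H3K4me3 alone was the most frequent state with windows of 2 kb. With windows of 5 kb both marks were more frequent, at 20 genes against 17 with H3K4me3 alone in control embryos and 22 against 11 in mutants. In control embryos 20 of the 41 genes (48.8%, 34.25 to 63.5) had H3K4me3 and no H3K27ac, where 24.1% of all genes and 23.5% of coding genes of similar length were in that state. In mutant embryos 17 genes (41.5%, 27.8 to 56.6) were in it, where 21.4% of all genes were. Both marks were present at 15 genes in control (42.3% of all genes) and 14 in mutant embryos (44.5% of all genes). H3K27ac alone was seen at 0 of the 41 genes in either condition, and at 5.65% and 9.05% of all genes. The 20 genes with H3K4me3 alone in control embryos included 5 of the 6 lncRNA genes, where 24.7% of all lncRNA genes were in that state. The exception was Rian, which had neither mark. A peak in all 4 lists was found at 9 genes (21.95%; 31.2% of all genes), namely Phlda2, Slc22a3, Dlk1, Grb10, Blcap, Commd1, Trappc9, Kcnk9 and Gab1. The 2 marks need not lie at the same gene end. They lay at opposite ends at Kcnk9 in both conditions and at Gab1 and Grb10 in mutant embryos. Calls at 4 of the 9 genes come to differ between conditions under other settings. They are both marks at Dlk1 and H3K27ac at Gab1 with windows of 1 kb, H3K27ac at Kcnk9 with an overlap of 200 bp, and H3K27ac at Slc22a3 with either of these or the wider 50% of each list. A peak in none was found at 5 genes (12.2%; 18.2% of all genes), namely Snrpn, Mkrn3, Rian, Slc38a4 and Smoc1.

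**Figure D1:**
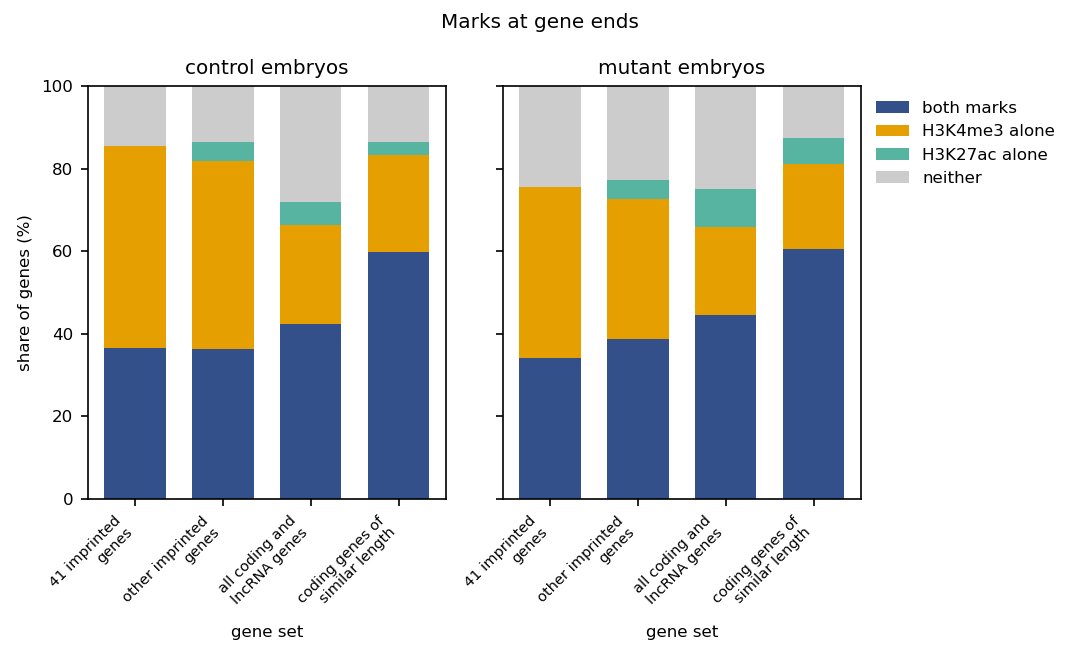
Shares of genes (%, vertical axis) by the marks present within 2 kb of either gene end, in control and mutant embryos, for the 41 imprinted genes, 44 other imprinted genes, all 34614 genes and 9630 coding genes of similar length. The H3K4me3-alone segment of the 41 genes has a height of 48.8% (control) and 41.5% (mutant), where that of all genes has 24.1% and 21.4%. Bars carry no error because each group has a single list.

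Broad peaks were less frequent at imprinted gene ends than over all marked genes, a difference that was not tested. Of the 35 genes with H3K4me3 in control embryos, 12 (34.3%) had a peak wider than 5 kb, where 48.2% of all marked genes did. In mutant embryos 10 of 31 (32.3%) did, against 60.5%. The median of the widest H3K4me3 peak was 3450 bp in control embryos and 4490 bp in mutants, against 4786 and 6432 bp over all marked genes. For H3K27ac, 7 of 15 control genes (46.7%; 57.0% of all marked genes) and 4 of 14 mutant genes (28.6%; 38.9%) had a peak wider than 5 kb. The widest H3K27ac gene-end peak in control embryos lay at Trappc9, a subunit of a vesicle-tethering complex, with 20231 bp against 8323 bp in mutants, where the widest lay at Commd1 with 9366 bp.

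**Figure D2:**
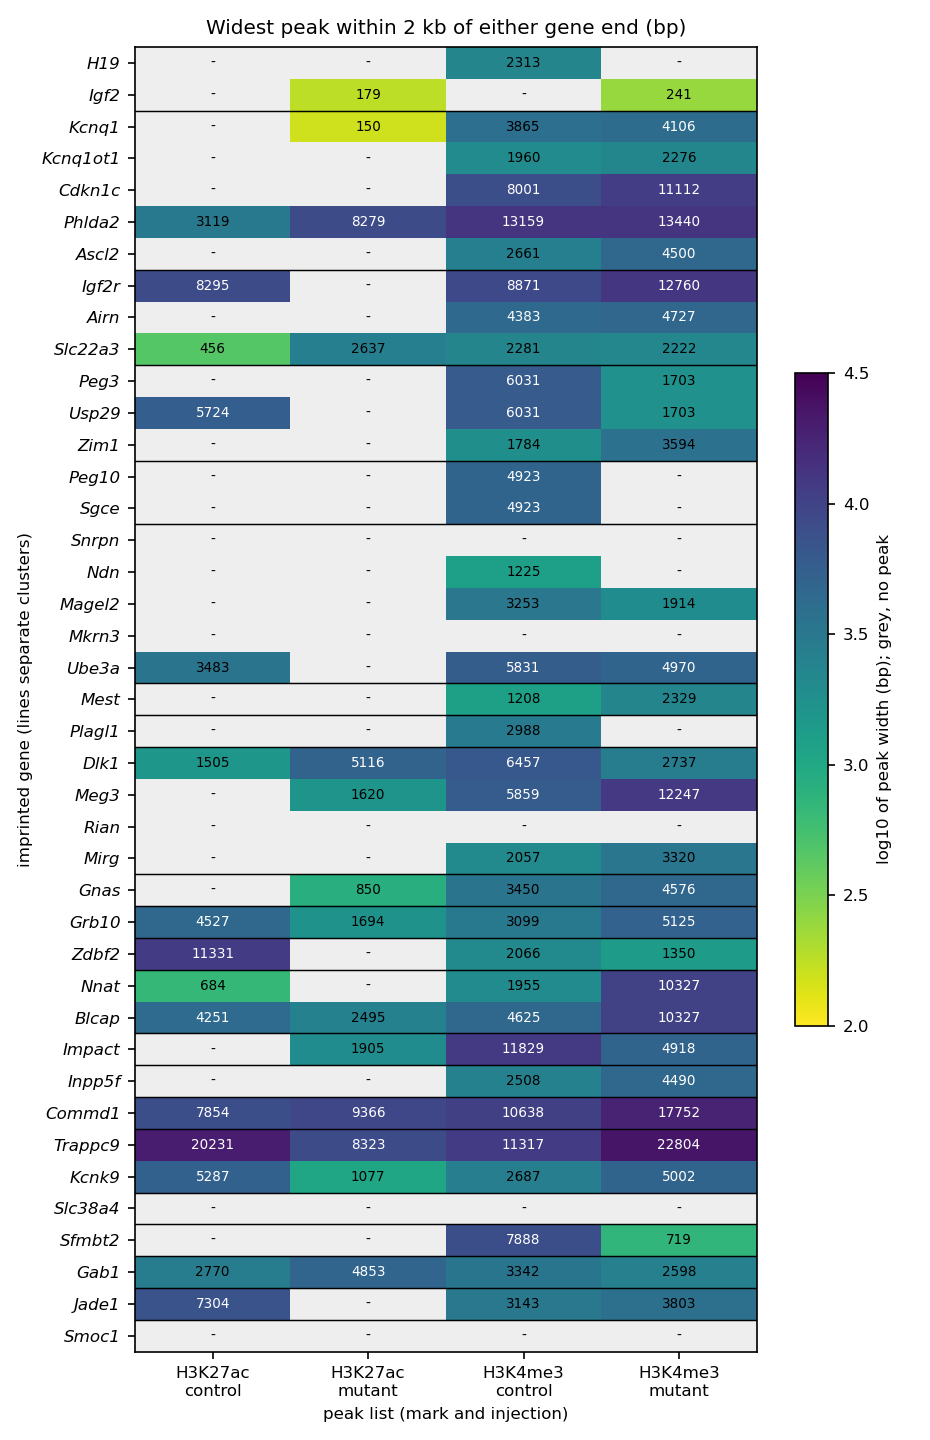
Width in bp of the widest peak within 2 kb of either gene end for the 41 genes (rows, grouped by cluster) in the 4 lists (columns); colour gives log10 of the width and grey cells with a dash have no peak. The H3K4me3 columns hold 35 and 31 filled cells and the H3K27ac columns 15 and 14.

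Between conditions, H3K4me3 calls differed at 6 genes. Calls pool both gene ends, so peaks at different places can count as a mark in both conditions. At Jade1, Nnat and Mirg, called in both, no control H3K4me3 gene-end peak was overlapped by a mutant peak. Of the 35 genes marked in control embryos, 5 (14.3%) had no gene-end peak in mutant embryos, a share close to the 12.9% of all control-marked genes. These 5 were H19, Peg10, Sgce, Ndn and Plagl1, of which Peg10 and Sgce share the same control peak. Of the 6 unmarked genes, 1 (16.7%; 24.1% of all unmarked genes) was marked in mutant embryos only, namely Igf2, through a peak of 241 bp. For H3K27ac, 9 genes were marked in both conditions, 6 of the 15 control-marked genes (40%; 25.6% of all genes) had no peak in mutant embryos, and 5 of the 26 others (19.2%; 34.3%) had a peak in mutant embryos only. The 6 were Igf2r, Usp29, Ube3a, Zdbf2, Nnat and Jade1, and the 5 were Igf2, Kcnq1, Meg3, Gnas and Impact. The mutant peaks behind the calls at Igf2 and Kcnq1 measured 179 and 150 bp, and both calls end when peaks under 200 bp are dropped. The H3K27ac call at Gnas, from a peak of 850 bp, ends with windows of 1 kb, an overlap of 200 bp or the wider 50% of each list. Windows of 5 kb end the H3K27ac calls at Usp29, Ube3a, Jade1, Nnat and Impact and the H3K4me3 calls at Plagl1 and Igf2. Keeping the wider 50% of each list ends the H3K4me3 calls at Ndn and Igf2 and the H3K27ac call at Nnat.

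A choice of 9 start sites in regions methylated in the egg was looked at in more detail. At such regions the methylated maternal copy is the silent one. The 9 sites were picked from textbook knowledge after the peak values had been seen and are not all such regions, so their counts describe these 9 and depend on the choice. Of genes left out of the choice, Peg13 and Zrsr1 had H3K4me3 peaks at their ends in both lists, Mcts2 in control embryos only (1714 bp) and Nap1l5 in mutant embryos only, and start site 2 of Grb10 lay outside the control H3K4me3 peaks. For 8 of the 9 sites the promoter window was used, and for the site shared by Peg10 and Sgce the sequence between both genes. All 9 overlapped an H3K4me3 peak by at least 1 base in control embryos, 4 did in mutant embryos, and 0 overlapped an H3K27ac peak in either condition. Over all promoter windows, H3K4me3 lay over 54.8% in control and 52.7% in mutant embryos, and H3K27ac over 29.7% and 25.8%. Of all promoters under a control H3K4me3 peak, 14.6% had no H3K4me3 peak in mutant embryos. The 300-base promoter windows of RefSeq (GRCm38.p6, 250 bases before to 50 after the start site, 5′ to 3′ along the gene) are shown because the overlap was counted on these bases, of which a peak can cover a part. Capitals mark TGCCGC, the core of the motif bound by ZFP57, or its reverse complement GCGGCA. The first 4 windows overlapped an H3K4me3 peak in control embryos, over 247 to 300 of their bases, and none in mutants.
Plagl1 (chr10:13090582-13090881, plus strand): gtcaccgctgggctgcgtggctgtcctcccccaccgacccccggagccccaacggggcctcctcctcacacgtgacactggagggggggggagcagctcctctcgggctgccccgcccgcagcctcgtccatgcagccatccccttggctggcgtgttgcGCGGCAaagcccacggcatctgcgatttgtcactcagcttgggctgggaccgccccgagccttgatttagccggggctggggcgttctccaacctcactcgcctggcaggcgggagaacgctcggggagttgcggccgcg
Nnat (chr2:157559828-157560127, plus strand): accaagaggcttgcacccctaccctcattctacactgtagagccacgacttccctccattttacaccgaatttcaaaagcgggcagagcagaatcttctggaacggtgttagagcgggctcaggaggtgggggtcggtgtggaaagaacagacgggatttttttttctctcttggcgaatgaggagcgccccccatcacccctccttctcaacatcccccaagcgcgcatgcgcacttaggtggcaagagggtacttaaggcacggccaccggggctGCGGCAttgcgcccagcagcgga
Mest, start site 2 (chr6:30737800-30738099, plus strand): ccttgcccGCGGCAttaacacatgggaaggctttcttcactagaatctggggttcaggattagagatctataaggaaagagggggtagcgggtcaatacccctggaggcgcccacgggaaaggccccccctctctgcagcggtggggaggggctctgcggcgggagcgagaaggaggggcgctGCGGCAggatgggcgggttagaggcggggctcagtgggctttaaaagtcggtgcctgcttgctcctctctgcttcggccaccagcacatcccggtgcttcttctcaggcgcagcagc
Snrpn, start site 4 (chr7:60005150-60005449, minus strand): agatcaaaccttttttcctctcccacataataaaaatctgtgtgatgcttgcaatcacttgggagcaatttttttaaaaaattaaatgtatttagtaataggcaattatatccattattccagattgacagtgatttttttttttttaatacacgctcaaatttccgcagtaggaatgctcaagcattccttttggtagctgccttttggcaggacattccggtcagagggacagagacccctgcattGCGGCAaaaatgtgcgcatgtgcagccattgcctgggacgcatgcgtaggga
The next 4 windows overlapped an H3K4me3 peak in both conditions, and Peg3 and Usp29 share the first of them in opposite directions.
Peg3 (chr7:6730370-6730669, minus strand): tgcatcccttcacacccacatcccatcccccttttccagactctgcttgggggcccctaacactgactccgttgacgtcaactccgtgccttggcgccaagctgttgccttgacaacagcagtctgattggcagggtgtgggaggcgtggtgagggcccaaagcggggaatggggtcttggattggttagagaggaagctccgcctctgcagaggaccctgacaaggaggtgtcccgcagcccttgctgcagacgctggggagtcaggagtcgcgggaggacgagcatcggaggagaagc
Kcnq1ot1 (chr7:143296498-143296797, minus strand): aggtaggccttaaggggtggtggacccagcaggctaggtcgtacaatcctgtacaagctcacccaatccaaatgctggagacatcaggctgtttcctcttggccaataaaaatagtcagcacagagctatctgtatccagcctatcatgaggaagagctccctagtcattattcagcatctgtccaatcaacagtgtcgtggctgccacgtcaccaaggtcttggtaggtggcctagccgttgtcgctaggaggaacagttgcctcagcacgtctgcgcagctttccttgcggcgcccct
Airn (chr17:12741061-12741360, plus strand): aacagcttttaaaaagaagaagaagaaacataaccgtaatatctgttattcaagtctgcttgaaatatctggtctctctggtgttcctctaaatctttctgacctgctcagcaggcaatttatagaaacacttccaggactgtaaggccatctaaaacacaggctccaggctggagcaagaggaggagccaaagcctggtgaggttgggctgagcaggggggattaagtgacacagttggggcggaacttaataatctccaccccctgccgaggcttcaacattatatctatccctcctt
Gnas, start site 2 (chr2:174327499-174327798, plus strand): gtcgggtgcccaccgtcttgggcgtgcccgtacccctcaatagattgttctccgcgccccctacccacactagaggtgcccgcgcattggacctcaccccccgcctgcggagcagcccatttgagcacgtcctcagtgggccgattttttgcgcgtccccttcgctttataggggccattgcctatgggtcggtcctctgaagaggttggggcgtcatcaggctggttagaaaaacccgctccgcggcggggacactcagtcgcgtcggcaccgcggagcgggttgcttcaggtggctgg

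At Plagl1, a zinc finger transcription factor gene, the control H3K4me3 peak over the start site was 2988 bp wide, and the nearest mutant peak lay 8594 bp away. At Nnat, which encodes the membrane protein neuronatin and lies within Blcap, the control peak was 1955 bp wide and the nearest mutant peak lay 2765 bp away. At the second start site of Mest, a gene of the hydrolase fold family expressed from the paternal copy, the values were 2668 bp and 2496 bp. The fourth start site of Snrpn, which opens the paternally expressed transcripts of the Prader-Willi region, had a control peak of 2527 bp. A mutant peak of 2618 bp lay 904 bp from that window, further into the gene, so the list was not empty there. The sequence between the neighbouring ends of Sgce and Peg10 (chr6:4747205-4747305) lay under a control H3K4me3 peak of 4923 bp and under no mutant peak. Peg10, a retrotransposon-derived gene needed for the placenta, had its nearest mutant H3K4me3 peak 13576 bp from the gene.

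At the other 4 sites the H3K4me3 peak was present in both lists. The shared Peg3 and Usp29 site, of a zinc finger gene and a ubiquitin peptidase gene, had a peak of 6031 bp in control embryos and 1703 bp in mutants. The site of Airn, the antisense lncRNA that silences Igf2r, had 4383 and 2974 bp. The window of Kcnq1ot1, the antisense lncRNA of the Kcnq1 cluster, had 1960 and 2276 bp. The control peak there covered 40 of the 300 bases and began just downstream of the start site, whereas the mutant peak covered all 300. For Airn the control peak covered 156 of the 300 bases, the start site among them, and the second start site of Gnas had 3777 and 5002 bp. The peak was thus narrower in mutant embryos at Peg3 and Airn and wider at Kcnq1ot1 and Gnas.

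**Figure D3:**
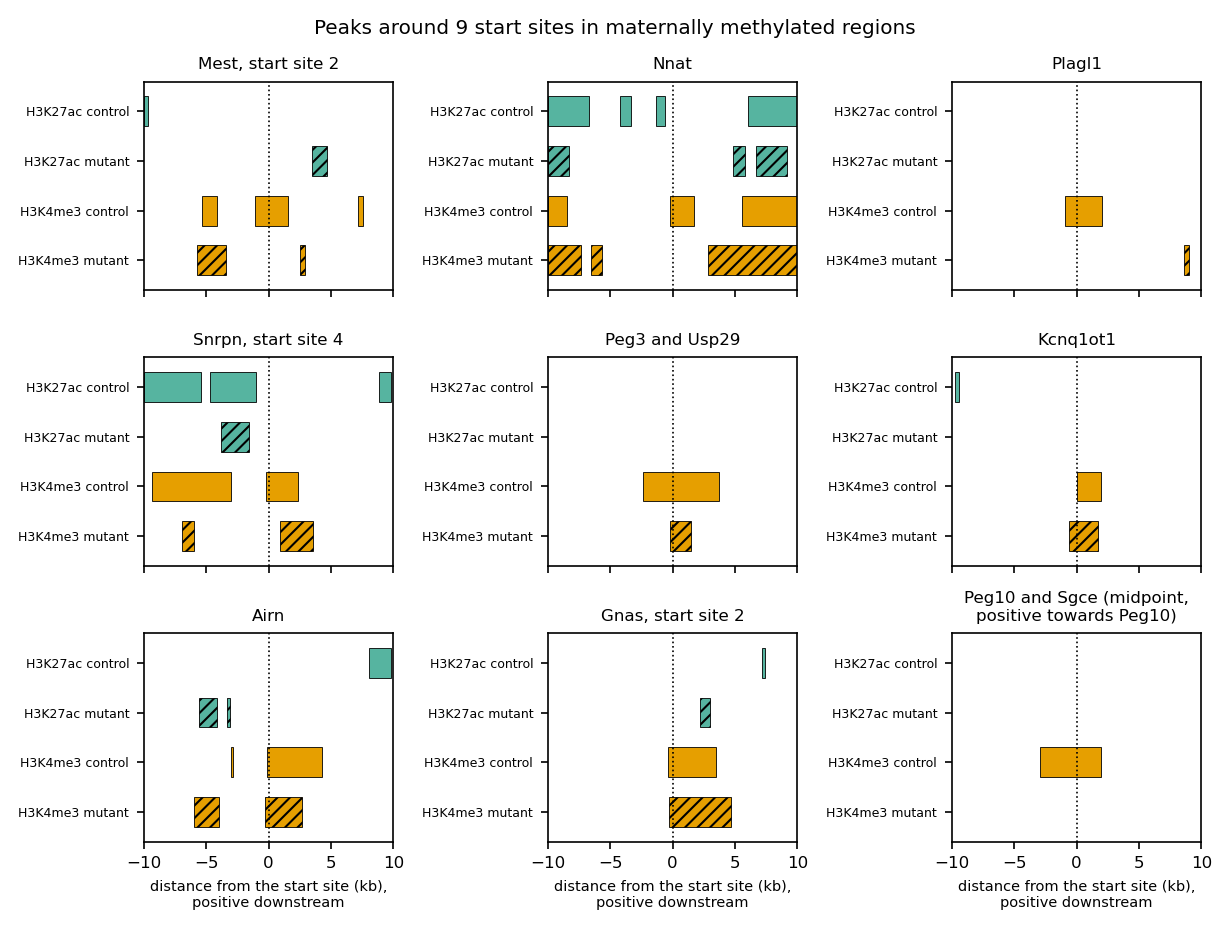
Peaks of the 4 lists (rows; orange H3K4me3, green H3K27ac, hatched for mutant) within 10 kb of 9 start sites, as distance from the start site in kb along the gene; the Peg10 and Sgce panel is centred between both genes. An H3K4me3 bar overlaps the promoter window, or the sequence between Peg10 and Sgce, at all 9 sites in control embryos and at 4 in mutants.

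The RefSeq promoter table held 54 start sites of 32 of the 41 genes. The genes without an entry were Sgce, Peg10, H19, Kcnq1, Cdkn1c, Smoc1, Kcnk9, Trappc9 and Impact. The 54 windows were richer in CpG than promoters in general, with a median of 15 CpG and 58.5% G+C, against 7 CpG and 52.7% over 32851 windows. H3K4me3 lay over 40 of them in control (74.1%; 54.8% of all windows) and 34 in mutant embryos (63.0%; 52.7%). H3K27ac lay over 8 in control (14.8%; 29.7%) and 4 in mutant embryos (7.41%; 25.8%). The 8 control windows belonged to Commd1, Grb10, Igf2, Igf2r, Jade1, Phlda2, Blcap and Ube3a, and the 4 mutant windows to Commd1, Phlda2, Gnas and Slc38a4. Among the 32 genes with an entry, only Commd1 and Phlda2 were thus under an H3K27ac peak at a start site in both lists. The genes without an entry could not be judged, among them Trappc9, with H3K27ac over a gene end in both lists.

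TGCCGC, searched on both strands, occurred in 11 of the 54 windows (20.4%; 11.6% of all windows). All 11 lay under a control H3K4me3 peak, and 5 of them (45.5%) under no mutant peak, at Plagl1, Nnat, Snrpn and both Mest windows, which overlap. Of the 29 control-marked windows without it, 3 (10.3%) were under no mutant peak. Over all genes the order was the opposite, with 9.45% of 3291 windows with the letters and 15.8% of 14709 without them. The 4 windows above with a peak in both lists hold no TGCCGC, which says only that these letters are not in those 300 bases. These counts were chosen after the values were seen.

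In the H19-Igf2 cluster on chromosome 7, the lncRNA gene H19 had a control H3K4me3 peak of 2313 bp (chr7:142577067-142579379) that reached the windows of both gene ends, and the nearest mutant peak lay 24378 bp from the gene. Igf2, the fetal growth factor gene, had H3K4me3 over start sites 2 and 3 in both lists, with a peak of 2673 bp in control embryos and 2660 bp in mutants. H3K27ac in the cluster was limited to single peaks of 446 bp in control embryos and 179 bp in mutants. Igf2r, whose receptor clears IGF2, had at its start site an H3K27ac peak of 8295 bp in control embryos and none in mutant embryos, a call that held under all 6 alternative settings. H3K4me3 at that site was 8871 bp wide in control embryos and 12760 bp in mutants. Igf2r with its flanks of 2 kb was covered by H3K27ac over 15.9% in control and 2.23% in mutant embryos. Slc22a3, an organic cation transporter gene of the same cluster, had H3K4me3 at its start site in both lists (2281 and 2222 bp).

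The Kcnq1 cluster on chromosome 7 had more sequence under peaks in mutant embryos. H3K4me3 covered 47.6 kb of its 540.3 kb span in control and 80.9 kb in mutant embryos, and H3K27ac covered 17.2 and 27.7 kb. All 5 listed genes of the cluster had H3K4me3 in both conditions. Phlda2, a brake on placental growth, had the widest peak, 13159 bp in control embryos and 13440 bp in mutants, and its widest H3K27ac peak measured 3119 and 8279 bp. Cdkn1c, an inhibitor of cell division, had H3K4me3 of 8001 and 11112 bp, and Ascl2, a trophoblast transcription factor gene, of 2661 and 4500 bp. Both lacked H3K27ac in both lists. Within Kcnq1, a potassium channel gene, peaks covered 2.19% of the gene and its flanks for H3K4me3 in control and 6.36% in mutant embryos.

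The Snrpn-Ube3a region spans 3195 kb on chromosome 7 and was sparsely covered. H3K27ac covered 75.6 kb in control and 34.9 kb in mutant embryos, and H3K4me3 50.4 and 23.8 kb. Within Snrpn there were 16 H3K27ac peaks in control embryos and 10 in mutants, and the widest, of 17169 bp in control embryos (chr7:60025699-60042867), was met by mutant peaks of at most 5596 bp. Of the single-exon genes of the region, Ndn had H3K4me3 in control embryos only (1225 bp), Magel2 in both (3253 and 1914 bp), and Mkrn3 in neither. Ube3a, the ubiquitin ligase gene of the Angelman syndrome, had H3K4me3 at its start site in both lists (5831 and 4970 bp) and H3K27ac in control embryos only (3483 bp), although mutant H3K27ac lay 3340 bp from the window.

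The Dlk1-Meg3 cluster on chromosome 12 had more H3K27ac in mutant embryos, with 11.9 kb of 300.97 kb covered in control and 32.1 kb in mutant embryos. H3K4me3 covered 47.9 and 51.6 kb. Meg3, the maternally expressed lncRNA gene, had at its start H3K4me3 of 5859 bp in control embryos and 12247 bp in mutants, and H3K27ac in mutant embryos only (1620 bp), under all 6 alternative settings too. Dlk1, which encodes a protein related to Notch ligands, was covered by H3K4me3 over 38.9% in control and 3.47% in mutant embryos, and by H3K27ac over 4.895% and 16.9%. Its control H3K4me3 peak of 960 bp near the start was not overlapped by a mutant peak. In mutant embryos that end had instead H3K4me3 of 2550 bp and H3K27ac of 2915 bp outside the gene. A peak of each mark beyond its 3′ end was present in both lists. Rtl1 and the deiodinase gene Dio3 lie further along the cluster. Rtl1 had no gene-end peak in any list, although its body held 2 H3K27ac peaks and 1 H3K4me3 peak in mutant embryos (450 and 437 bp covered). Dio3 had H3K27ac (973 and 3924 bp) and H3K4me3 (4667 and 5950 bp) in both conditions.

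Gnas, Grb10, Zdbf2 and Inpp5f had H3K4me3 at a gene end in both conditions. At the first start site of Gnas, which encodes a stimulatory G protein subunit and other products, H3K4me3 measured 3450 bp in control embryos and 4576 bp in mutants. H3K27ac covered 0.289% of Gnas and its flanks in control embryos and 4.37% in mutants, where a peak of 789 bp overlapped start site 4. Grb10, an adaptor that restrains growth, had H3K4me3 of 3099 and 5125 bp at its first start site. Its H3K27ac at that site was a peak of 442 bp in control embryos and absent in mutant embryos. Its other end had H3K27ac peaks of up to 4527 bp in control embryos and 1694 bp in mutants. Zdbf2, a zinc finger gene, was covered by H3K4me3 over 30.5% in control and 46.6% in mutant embryos. Its control H3K27ac peak of 11331 bp reached the gene-end window only by its edge, and the call ends with windows of 1 kb or an overlap of 200 bp. At its second start site H3K4me3 measured 3106 and 8660 bp. Inpp5f, a phosphoinositide phosphatase gene, had H3K4me3 of 2508 and 4490 bp at its start and H3K27ac only within its body.

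Commd1, Trappc9 and Blcap, which contain or adjoin an imprinted partner, carried both marks in both conditions. Commd1, a gene of copper metabolism, had the highest H3K27ac coverage of the 41 genes in control embryos, 46.0%, and 49.5% in mutants, and its widest H3K4me3 peak measured 10638 and 17752 bp. Zrsr1, the paternally expressed gene in its intron, had H3K4me3 of 3981 and 7594 bp at its ends. Trappc9 had H3K4me3 of 11317 and 22804 bp at the end away from Kcnk9, whereas Peg13 within it had 1237 and 3016 bp of H3K4me3 and no H3K27ac. Kcnk9, a potassium channel gene beside it, had H3K4me3 of 2687 and 5002 bp. Blcap had both marks in both lists, with a widest H3K27ac peak of 4251 and 2495 bp. Herc3 had H3K4me3 of 1526 and 7061 bp, and Nap1l5 in its intron had H3K27ac in control embryos only (752 bp) and H3K4me3 in mutant embryos only (702 bp).

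Impact, a translation regulator gene on chromosome 18, had 8.23 kb of its 42.3 kb span under H3K4me3 in control and 1.93 kb in mutant embryos. The control peaks measured 11829 bp at the gene end and 2773 bp within the gene, and the mutant list held a single peak of 4918 bp that ended 67 bp before the gene. H3K27ac was called in mutant embryos only (1905 bp).

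The 5 genes with H3K27me3-dependent imprints differed among themselves. Sfmbt2, a Polycomb-related gene of the placenta, had H3K4me3 of 7888 bp at its start in control embryos and 719 bp in mutants, and 3.45% and 0.416% of the gene was covered. Jade1, a subunit gene of a histone acetyltransferase complex, had at its first start site H3K27ac of 7304 bp and H3K4me3 of 2838 bp in control embryos and neither in mutant embryos. Its H3K4me3 coverage as a whole was 21.8% in control and 54.4% in mutant embryos, and the peak over the other 3 start sites measured 4016 and 10707 bp. Gab1, a signalling adaptor gene, had H3K4me3 at its start (2265 and 2598 bp) and H3K27ac at its other end (2770 and 4853 bp). Slc38a4, an amino acid transporter gene, and Smoc1, a matrix protein gene, had no gene-end peak in any list, and H3K4me3 covered 7.28% and 2.66% of Slc38a4. Start site 2 of Slc38a4, within the gene, lay under H3K4me3 of 1310 bp and H3K27ac of 1867 bp in mutant embryos only. Xist, the X-linked lncRNA with the same kind of imprint, had H3K4me3 of 4548 and 3588 bp.

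**Figure D4:**
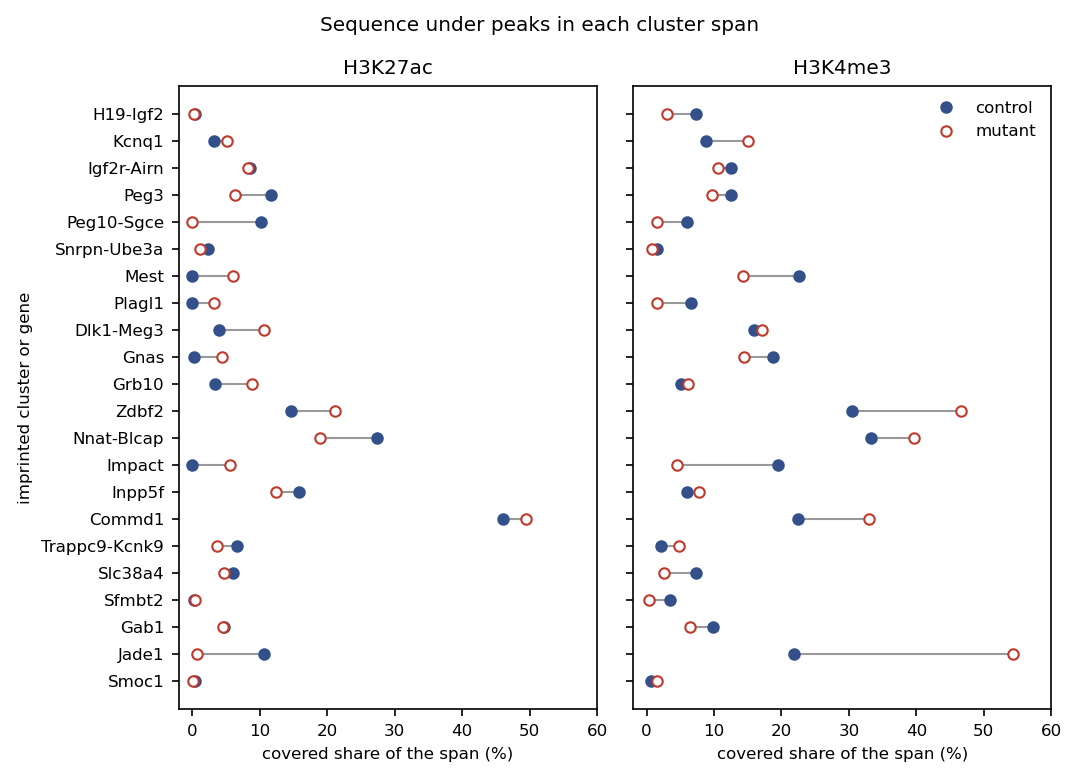
Share of each cluster span under peaks (%, horizontal axis) for H3K27ac and H3K4me3 in control (filled) and mutant embryos (open); a span runs from the first to the last listed gene plus 2 kb on each side. For each mark the mutant value is lower in 12 and higher in 10 of the 22 spans.

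Summed over the 22 spans (6763 kb), H3K27ac covered 322.6 kb in control and 281.5 kb in mutant embryos, a ratio of 0.873, against 0.977 over the genome. H3K4me3 covered 402.6 and 430.4 kb, a ratio of 1.07, against 1.09. Single spans weigh heavily in these sums. Snrpn-Ube3a held 75.59 kb of H3K27ac in control and 34.85 kb in mutant embryos, and Kcnq1 held 47.57 and 80.88 kb of H3K4me3. For each mark 12 spans had less and 10 more in mutant embryos. By gene, H3K4me3 coverage in mutant embryos was lower by 2-fold or more at 8 of 36 genes covered in both lists (22.2%; 9.36% of all genes). These were Peg3, Sgce, Snrpn, Plagl1, Dlk1, Impact, Slc38a4 and Sfmbt2. It was higher by 2-fold or more at 5 (13.9%; 15.9%), namely Kcnq1, Mirg, Trappc9, Jade1 and Smoc1. A further 3 of 39 covered genes (7.69%; 10.0%), H19, Peg10 and Ndn, had no coverage at all in mutant embryos. Rian was covered in mutant embryos only (26.9% of all genes uncovered in control). For H3K27ac, 7 of 24 genes (29.2%; 21.6%) were lower by 2-fold or more, namely Igf2, Igf2r, Zim1, Snrpn, Kcnk9, Jade1 and Smoc1. Another 6 (25%; 22.5%) were higher, namely Phlda2, Slc22a3, Dlk1, Gnas, Grb10 and Sfmbt2. Several of these ratios rest on short covered lengths. In mutant embryos H3K27ac was down from 446 to 179 bp at Igf2 and from 361 to 149 bp at Zim1. It was down from 370 to 71 bp at Kcnk9 and from 556 to 149 bp at Smoc1. The narrowest mutant H3K27ac peak measured 149 bp. Igf2r, Snrpn and Jade1 started from 6925 bp or more. Of the higher genes, Gnas started from 192 bp and Sfmbt2 from 450 bp, and the others from 727 bp or more. The H3K4me3 ratio at Mirg started from 136 bp. Peg3, Sgce and Nnat, 3 of 27 covered genes (11.1%; 15.2%), had no H3K27ac in mutant embryos, and Mest, Plagl1, Meg3, Mirg and Impact were covered in mutant embryos only, 5 of 14 genes (38.6% of all genes uncovered in control). The median H3K4me3 ratio was 0.955, against 1.10 over all genes, and the median H3K27ac ratio was 0.746, against 0.939.

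Among genes with a gene-end peak in both lists, the widest H3K4me3 peak was wider in mutant embryos at 20 of 30 genes (66.7%; 63.0% of all genes) and narrower at 10 (33.3%; 36.9%). A change of 2-fold or more was seen at 5 genes in each direction (16.7%), where 24.9% of all genes were wider and 10.9% narrower by that much. The largest increases were at Nnat, Blcap, Meg3, Trappc9 and Zim1, and the largest decreases at Sfmbt2, Peg3, Usp29, Impact and Dlk1. At Nnat the wider mutant peak is that of the Blcap end and not of its own start site. Nnat and Blcap are thus counted on the same mutant peak, and Peg3 and Usp29 on the same peak in each list. The peaks compared at Jade1 and at Mirg do not overlap between lists. For H3K27ac, 5 of 9 genes were wider (55.6%; 34.0%) and 4 narrower (44.4%; 66.0%). The median ratio was 1.19, against 0.638 over all genes, but it rested on 9 genes and was 0.89 in the wider 50% of each list.

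A gene-end peak that reached past its window was counted over the body too. At Plagl1, Sfmbt2 and Magel2 the only control H3K4me3 peak over the body was such a peak. Beyond the gene-end windows, 34 of the 41 genes have a body. H3K4me3 lay within 30 of them in control (88.2%; 64.2% of all genes) and 29 in mutant embryos (85.3%; 67.6%). H3K27ac lay within 23 (67.65%; 57.4%) and 24 (70.6%; 62.7%). Among coding genes of similar length the H3K4me3 shares were 78.3% and 80.8% and the H3K27ac shares 73.4% and 79.04%.

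A second list held 46 further imprinted genes, of which 44 were matched, several of them neighbours of the 41 that share peaks with them. In control embryos 20 of the 44 (45.45%; 24.1% of all genes) had H3K4me3 alone, and 15 (34.1%; 21.4%) did in mutant embryos. Of the control-marked genes among the 44, 5 of 36 (13.9%; 12.9% of all genes) had no H3K4me3 and 7 of 18 (38.9%; 25.6%) no H3K27ac in mutant embryos. H3K27ac alone was seen at 2 of the 44 (4.55%; 5.65% of all genes) in control embryos and at 2 (4.55%; 9.05%) in mutants. Coverage in the 44 differed in direction from that in the 41, a difference that was not tested. H3K4me3 coverage was lower by 2-fold or more at 1 of 33 genes covered in both lists (3.03%, against 9.36% of all genes). It was higher by that much at 4 (12.1%, against 15.9%). The median H3K4me3 ratio was 1.191, against 0.955 for the 41. H3K27ac coverage was lower by 2-fold or more at 1 of 26 (3.85%; 21.6%) and higher at 10 (38.5%; 22.5%), with a median ratio of 1.655 against 0.746 for the 41. Calls differed for both marks at Nap1l5 and at Zim2, which had H3K4me3 in control embryos only (239 bp) and H3K27ac in mutants only (256 bp). Of 21 factors that set or protect imprints, 20 were matched. Of these, 16 had H3K27ac (47.9% of all genes) and 18 had H3K4me3 (66.4%) in control embryos, and 18 (53.5%) and 19 (65.9%) had them in mutant embryos. The widest H3K27ac peak was narrower in mutants at 13 of the 16 factors marked in both lists and wider at 3, where 66.0% and 34.0% of all genes were. Among the narrower were Trim28, the corepressor recruited by ZFP57 (52398 and 8913 bp), Zfp57 itself (12859 and 6379 bp) and Dnmt1, the maintenance DNA methyltransferase (33361 and 14474 bp). The 3 wider were Uhrf1, which brings DNMT1 to replicating DNA (7845 and 15360 bp), the histone methyltransferase gene Ehmt2 (10909 and 16875 bp) and Nlrp2 (1161 and 2456 bp).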

How the data were processed

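The data analysed were 4 deposited peak lists of 3 columns (chromosome, start and end), 1 for each immunoprecipitation group of 2 libraries. Groups were taken from sample titles, and lists were assigned through the sample descriptions. Per the submitters' processing notes, the build is mm10 (GRCm38) and tools named include Trimmomatic, Bowtie2, Picard and MACS2, with no settings. Whether libraries were pooled before calling is not given in the sources used here. The deposited lists hold no score, height or count, so peaks could not be ranked and depth is unknown.

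Peaks on chromosomes 1 to 19, X and Y were kept, and positions are printed 1-based. Gene and promoter positions are those of RefSeq GRCm38.p6. A gene was marked when a peak overlapped a gene-end window of 2 kb by at least 1 bp. Body peaks overlap the gene beyond these windows by at least 1 bp, and they may also reach into a window. Covered length was counted over the gene plus 2 kb on each side. Shares beside a count in parentheses after a semicolon are those of all genes. Start sites came from the promoter windows. Interval functions were tested on simulated data (Python 3.11.15, numpy 2.4.6, pandas 2.3.3, scipy 1.17.1).

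The genes named were all list members, with those whose calls differed given in full, Zrsr1, Peg13, Rtl1, Dio3, Nap1l5 and Herc3 as partners or neighbours, Xist, and further imprinted genes whose calls differed for both marks; the imprint factors named and Mcts2 were chosen after their values were seen. Members and lists were chosen with earlier results of these data known. Alternatives covered the window, the overlap, common limits on gap and width (peaks less than 750 bp apart merged, under 200 bp dropped), lists of equal size and the wider 50% of each list.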

Additional observations from a re-analysis of the deposited data

How the results depend on the processing

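No paired analysis was possible because both libraries of a group share 1 deposited list, so no replicate could be left out either. Counts and ratios that answer a comparison were recomputed under the alternatives. Of these, 86 stayed within 1.5 times the reported value and on its side of 1, 11 moved further and 1 crossed 1. With windows of 5 kb, the genes with H3K27ac in mutant embryos numbered 22 in place of 14, those with H3K4me3 alone in mutant embryos 11 in place of 17 (26.8%, against 15.1% of all genes), and those with H3K4me3 in mutant only 0 in place of 1. The genes with H3K27ac in mutant only numbered 3 in place of 5 with an overlap of 200 bp, common limits, lists of equal size or the wider 50% of each list. In the wider 50%, control genes with H3K27ac in the body numbered 14 in place of 23, and genes with H3K4me3 in control only 8 in place of 5. Genes with H3K4me3 in mutant only numbered 2 with windows of 1 kb or an overlap of 200 bp. The median ratio of the widest H3K27ac peak was 1.19 as reported and 0.89 in the wider 50%. The cause was not tested. The share of imprinted genes with H3K4me3 alone in control embryos lay between 41.5% and 58.5% under the 6 alternatives, against 20.5% to 25.3% of all genes; these were added after the lists had been seen. With no score and no replicate list, weak peaks cannot be told from absent ones.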
